A study of Rattus norvegicus with 10 samples.

Results

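Liver transcripts of 8 enzymes that handle superoxide, peroxides and glutathione were followed in rats on a high-fat diet: the superoxide dismutases Sod1 and Sod2, catalase (Cat), the glutathione peroxidases Gpx1 and Gpx4, glutathione reductase (Gsr) and the peroxiredoxins Prdx2 and Prdx6. They were taken by symbol from a list of 9 genes, as probe sets annotated with exactly 1 gene. The rule itself uses no measured value, but the list was drawn up with earlier results of these data known. Of the 9 genes, 8 were found among the 14217 genes that the array names in this way, on 9 of its 31042 probe sets other than controls, Gpx4 having 2. The probe set listed for the remaining gene, Prdx1, carries a second symbol (Prdx1l1) as well, so Prdx1 has no value here. All 9 probe sets passed the filter on low signal, which kept 18625 probe sets and 10328 genes.

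All 10 animals were rats of the Wistar/ST stock, all were fed the high-fat diet, and each array holds the liver RNA of 1 rat. The 5 mulberry rats received dried mulberry leaf powder by gastric probe, in carboxymethylcellulose, with a daily dose of 500 mg per kg of body weight. The 5 control rats received 0 mg per kg, and livers were taken after 7 weeks. The labels give the dose per day but also speak of dosing on a 6 weekly basis, so how often the powder was given is unclear. Sex and age are not given in the labels, and no group on another diet was analysed here, so an effect of the diet itself cannot be seen. The comparison asks whether the leaf powder alters transcripts of the basal antioxidant defence under a fat-rich diet.

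Superoxide dismutases turn superoxide into hydrogen peroxide, Sod1 with copper and zinc mainly in the cytosol and Sod2 with manganese in the mitochondrial matrix. The peroxide is then removed by catalase in peroxisomes, by the selenium enzyme Gpx1 with glutathione, and by peroxiredoxins through a reactive cysteine, while Gpx4 acts on lipid peroxides in membranes. Glutathione reductase returns oxidised glutathione to its reduced form with NADPH. Liver is rich in these enzymes, and its peroxisomal and mitochondrial fat oxidation both yield reactive oxygen.

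In the intensities as deposited, the signals of 7 of these genes varied together between rats and that of Cat did not, so the 250 bases before the annotated start site are shown for Cat and for Sod1, Sod2, Gpx1 and Prdx2. RefSeq promoter windows of the rat assembly GRCr8 were matched by symbol for 6 of the 8 genes. Prdx6 and Gsr had no entry. The sequences run 5′ to 3′ on the gene's strand, and capitals mark every match, on either strand, to 4 motifs: the CCAAT box spelled CCAAT, the GC box spelled GGGCGG, the TATA box spelled TATAAA, and the antioxidant response element core spelled TGACNNNGC. No marked matches overlap in these 5 windows. The windows are chr3:110329527-110329776 (minus strand) for Cat, chr11:42942573-42942822 (plus) for Sod1, chr1:50050169-50050418 (minus) for Sod2, chr8:117905212-117905461 (plus) for Gpx1 and chr19:40090983-40091232 (minus) for Prdx2.
Cat: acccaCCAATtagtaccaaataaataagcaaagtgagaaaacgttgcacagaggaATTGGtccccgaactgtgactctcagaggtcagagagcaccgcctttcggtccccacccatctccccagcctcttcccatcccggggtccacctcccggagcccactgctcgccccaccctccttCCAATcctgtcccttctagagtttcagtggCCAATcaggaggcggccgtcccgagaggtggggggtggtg
Sod1: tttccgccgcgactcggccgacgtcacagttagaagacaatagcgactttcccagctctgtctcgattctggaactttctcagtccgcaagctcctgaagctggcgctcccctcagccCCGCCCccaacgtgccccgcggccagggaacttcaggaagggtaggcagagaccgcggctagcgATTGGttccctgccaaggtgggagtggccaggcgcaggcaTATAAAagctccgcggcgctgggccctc
Sod2: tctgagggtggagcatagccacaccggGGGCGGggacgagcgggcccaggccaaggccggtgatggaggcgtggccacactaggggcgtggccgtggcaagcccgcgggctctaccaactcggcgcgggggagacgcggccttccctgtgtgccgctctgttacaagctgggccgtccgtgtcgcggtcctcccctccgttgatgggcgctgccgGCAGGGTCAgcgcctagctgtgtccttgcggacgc
Gpx1: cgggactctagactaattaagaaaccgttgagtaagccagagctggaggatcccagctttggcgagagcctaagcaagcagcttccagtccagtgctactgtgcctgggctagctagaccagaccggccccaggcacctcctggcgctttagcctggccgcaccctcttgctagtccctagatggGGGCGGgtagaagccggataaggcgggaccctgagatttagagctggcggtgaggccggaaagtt
Prdx2: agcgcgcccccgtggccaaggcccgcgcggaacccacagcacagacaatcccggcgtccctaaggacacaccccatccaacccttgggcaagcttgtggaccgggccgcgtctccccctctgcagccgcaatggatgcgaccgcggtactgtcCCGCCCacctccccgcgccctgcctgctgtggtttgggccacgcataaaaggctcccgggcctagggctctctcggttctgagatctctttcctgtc
Among these windows Cat held 4 CCAAT matches, 3 on its own strand and 1 on the opposite strand, and no match to the GC box. Each of the other 4 held 1 GC box match. Gpx4, 1 of the 7 that varied together and not printed here, has 3 windows in the table, the last of which does not overlap the other 2. Its windows held 2, 3 and 0 CCAAT matches and 4, 4 and 0 GC box matches, some of the latter overlapping each other, so CCAAT matches did not set Cat apart from the other genes. Sod1 also held a CCAAT match and a TATA box match 28 to 23 bases before the start. The antioxidant response element core was matched only in Sod2 among the 6 genes, 35 to 27 bases before the start on the opposite strand. Of the 33469 windows in the table, 34.0% held a CCAAT match, 30.5% a GC box, 12.9% a TATA box and 10.1% the antioxidant response element core. A match is a run of letters, not a measured binding site.

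None of the 8 genes differed between mulberry and control rats beyond the spread between animals. Differences of the group means ran from -0.13 (Gsr) to +0.07 (Sod1) on the log2(intensity + 16) scale, with 6 genes higher and 2 lower in mulberry rats. With each array centred on its median log2 value 3 were higher, with quantile normalization 5, and with 1 rat left out between 3 and 6. Of the 8 genes, 0 passed an adjusted p of 0.05 with limma, against 0% of all probe sets (0 of 18625). At an unadjusted p under 0.05 the count was also 0 of 8, the smallest unadjusted limma p being 0.363 (Sod2). Over all probe sets 325 (1.74%) were under that level, 200 higher and 125 lower, or 166 and 176 with quantile normalization and 124 and 179 with median centring. With 1 probe set per gene the share was 1.79%. Control and mulberry values overlapped for each of the 8 genes, and 0.32% of all genes had groups that did not overlap. The median difference was +0.020 over the 8 genes and +0.0035 over all 10328 genes. The median of the 8 had no stable sign, at -0.0080 with median centring and from -0.021 (without mulberry rat 4) to +0.076 (without control rat 3) with 1 rat left out. It was also below 0 without control rat 2 (-0.019), control rat 5 (-0.0035) or mulberry rat 1 (-0.020).

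The data limit how large a change could be. The 95% confidence interval of the mean difference was narrowest for catalase, from -9.05% to +10.6%, and widest for glutathione reductase, from -31.0% to +21.0%. For the 8 genes the median half-width of the interval was 0.25 on the log2 scale, against 0.33 over all genes tested. An interval that includes 0 does not show that the groups were alike.

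**Figure D1:**
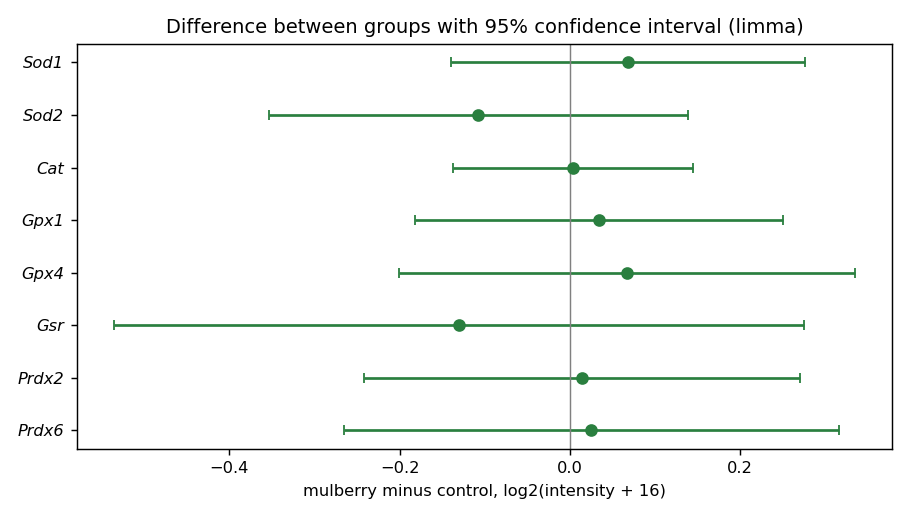
Mean of the mulberry rats less that of the control rats in log2(intensity + 16) units (horizontal axis) for 8 genes (vertical axis), with the 95% confidence interval of the limma fit, n = 5 rats per group. All 8 intervals include 0, and that of Cat is the narrowest.

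Sod1, the cytosolic dismutase, had signal intensities of 20867, 19461, 25938, 22243 and 18830.5 in control rats 1 to 5 and 23296, 21403, 19903, 25249.9 and 22304 in mulberry rats 1 to 5. Control rat 3 and mulberry rat 4 were highest, and the mulberry values lay wholly inside the control range. Group means were 21468 ± 2825 and 22431 ± 2010.0 (SD, n = 5 each), a log2 difference of +0.07 ± 0.10 (SE, adjusted p = 0.9999 with limma, the value for every gene given here). Leaving out 1 rat at a time gave differences from +0.023 (without control rat 5) to +0.14 (without control rat 3), and array weights gave +0.11.

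Sod2, the mitochondrial enzyme, was at 3335, 2977, 4342, 4017 and 3109 in control and 3373, 3182, 2949.7, 3452 and 3389.8 in mulberry rats. Control rats 3 and 4 stood above all other animals. The means of 3556 ± 594 and 3269 ± 205 (SD, n = 5 each) differed by -0.11 ± 0.11 (SE), with an interval from -21.7% to +10.1%. Leaving out 1 rat at a time gave differences from -0.17 (without control rat 2) to -0.032 (without control rat 3), and array weights gave -0.035.

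Catalase had the steadiest signal of the 8 genes. Its intensity was 25571, 24912, 25704, 24709.5 and 23968 in control and 27488, 23165, 25603, 25176 and 23956 in mulberry rats. The highest and the lowest animal, mulberry rats 1 and 2, differed 1.19-fold, and the means were 24973 ± 703 and 25078 ± 1659 (SD, n = 5 each). The log2 difference was +0.0040 ± 0.065 (SE), and its sign turned with quantile normalization (-0.018) and median centring (-0.024). Over the 10 rats the SD of Cat was 0.069 on the log2 scale, lower than that of all but 0.53% of the genes tested, where the median gene had 0.23. Cat was also among the brightest probe sets, at rank 88 of 31042 by mean intensity, while the highest intensity on an array was between 40721 and 49485. Whether signal near the upper end of the scale is compressed was not tested.

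**Figure D2:**
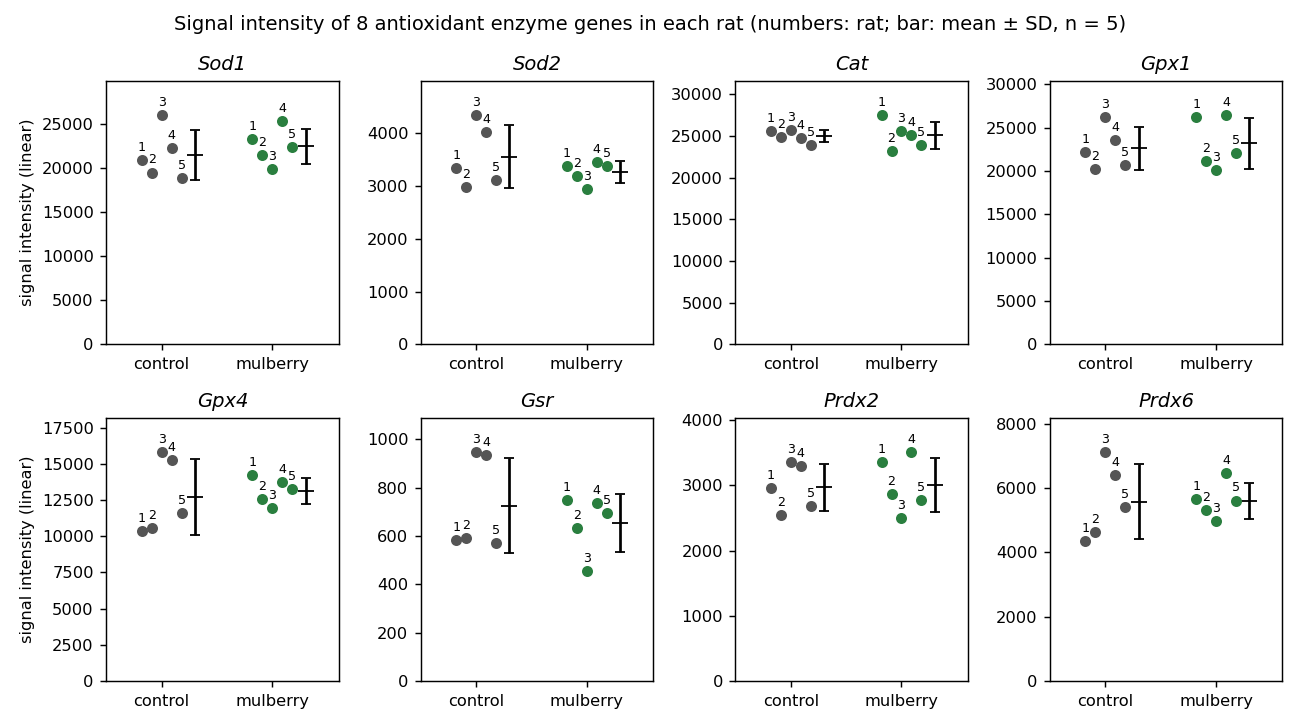
Linear signal intensity (vertical axes, from 0) of 8 genes in each of the 10 rats, control (grey) and mulberry (green), with the rat number beside each point and the mean ± SD (n = 5) as a bar. Groups overlap in every panel, control rats 3 and 4 are high for Sod2, Gpx4, Gsr and Prdx6, and Cat spans only 23165 to 27488.

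The glutathione enzymes differed among themselves in how far rats lay apart. Gpx1, the main cytosolic selenium peroxidase of liver, was at 22188, 20265, 26236, 23606 and 20649 in control and 26216, 21124, 20094, 26412 and 22046 in mulberry rats. Control rat 3 and mulberry rats 1 and 4 formed its upper end at almost the same value. Means were 22589 ± 2432 and 23178.5 ± 2945 (SD, n = 5 each), and the log2 difference was +0.03 ± 0.10 (SE).

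Gpx4, which protects membranes from lipid peroxidation, was at 10378, 10587, 15822, 15289.6 and 11606 in control and 14206, 12594, 11946, 13759.8 and 13259 in mulberry rats. The control rats split into 2 high and 3 low animals, and every mulberry rat lay between them. Its means were 12737 ± 2622 and 13153 ± 902 (SD, n = 5 each), with a log2 difference of +0.07 ± 0.12 (SE), or -0.00033 without control rat 1. A second, dim Gpx4 probe set had intensities between 21.0 and 113.6, close to the filter level of 61.1, and differed by +0.07 ± 0.33 (SE).

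Gsr, the NADPH-dependent reductase that keeps glutathione reduced, was the dimmest and most variable gene. Control rats had 584.3, 590.7, 946.7, 933.9 and 571.3, and mulberry rats 750.3, 633.8, 453.4, 734.4 and 693.2. Its highest and lowest animals, control rat 3 and mulberry rat 3, were 2.09-fold apart. The means of 725 ± 196 and 653 ± 120.4 (SD, n = 5 each) differed by -0.13 ± 0.19 (SE). Leaving out 1 rat at a time gave differences from -0.20 (without control rat 5) to -0.0081 (without mulberry rat 3), and array weights gave -0.023.

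Among the peroxiredoxins, Prdx2, a thioredoxin-dependent peroxidase that is also abundant in red blood cells, was at 2957, 2547, 3366, 3294 and 2686 in control and 3357, 2876, 2501, 3512 and 2782 in mulberry rats. Mulberry rats 3 and 4 marked its lowest and highest values. Means were 2970.1 ± 361 and 3006 ± 419 (SD, n = 5 each), a log2 difference of +0.01 ± 0.12 (SE).

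Prdx6, a peroxiredoxin that also acts on phospholipids, was at 4335, 4641, 7114, 6401 and 5392 in control and 5639, 5303, 4977, 6456 and 5607 in mulberry rats. As for Gpx4, the mulberry values lay inside the wider control range. Its means were 5576.5 ± 1172 and 5596 ± 550.3 (SD, n = 5 each), and the log2 difference was +0.02 ± 0.13 (SE).

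Rats differed more than group means did, and 7 of the 8 genes did so together. All but Cat were above their mean in control rats 3 and 4 and mulberry rat 4 and below it in control rats 1, 2 and 5 and mulberry rats 2 and 3, the deviation from a gene's mean over the 10 rats reaching +0.48 and -0.56 on the log2 scale for Gsr. Over the 10 rats, all 21 pairs among Sod1, Sod2, Gpx1, Gpx4, Gsr, Prdx2 and Prdx6 had a Pearson r between 0.724 and 0.956, with a median of 0.793. All 21 passed a permutation test with 100000 resamples after Benjamini-Hochberg adjustment over the 28 pairs, with raw p from 3e-05 to 0.0198 and adjusted p from 0.00084 to 0.0264, and all 21 also passed by Spearman's rho (0.685 to 0.988). Setting Cat apart was done after the values were seen. Its 7 pairs had r from 0.068 to 0.549, and 0 of them passed, with adjusted p from 0.125 to 0.853 and rho from 0.139 to 0.358. Over all pairs of the 10328 genes the median r was 0.0037, with a 5th percentile of -0.613 and a 95th percentile of 0.622. Among the 1033 genes with the highest mean log2 values, where most of these enzymes lie, the median was 0.177 and the 95th percentile 0.801.

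**Figure D3:**
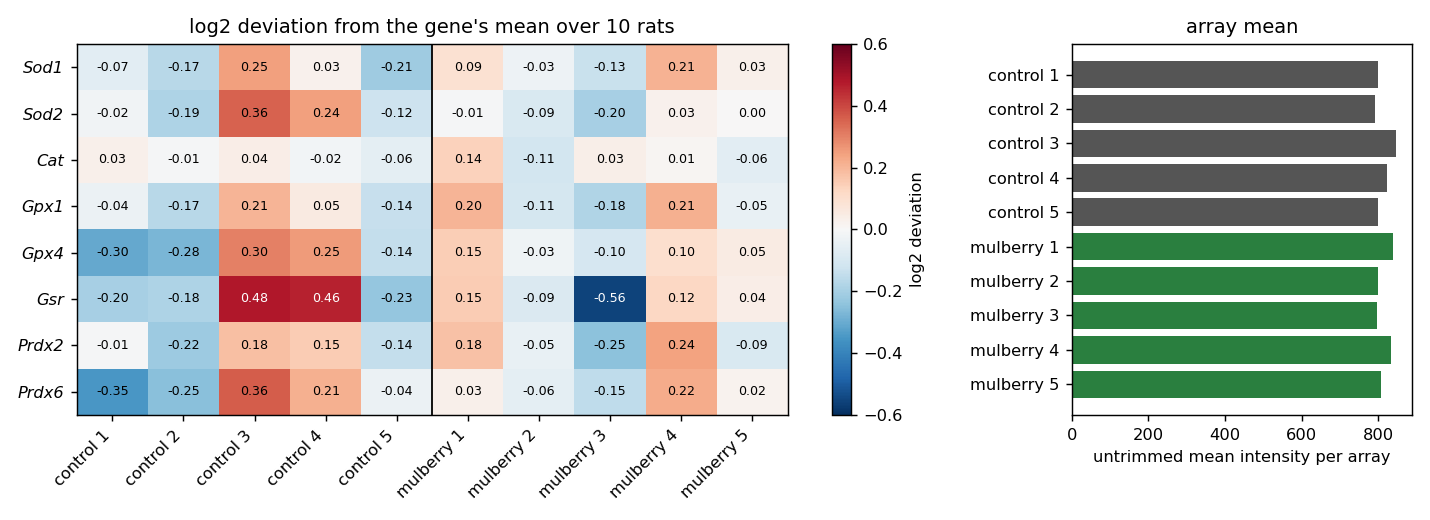
Left, log2 deviation of each gene (rows) from its mean over 10 rats, by rat (columns, controls left of the line); right, the untrimmed mean intensity of each rat's array (horizontal axis, from 0), control grey and mulberry green. Control rat 3 and mulberry rats 1 and 4, the 3 arrays with the highest mean, have positive deviations for all genes except Sod2 in mulberry rat 1, while Cat stays between -0.11 and +0.14.

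The closest pair was Gpx1 and Prdx2, with r = 0.956 (adjusted permutation p = 0.00084) and rho = 0.988 (adjusted permutation p = 0.00028). Without the 2 rats farthest from the median of Gpx1, r was 0.932 over 8 rats. Gpx4 and Prdx6 followed with r = 0.938 and rho = 0.927, and r = 0.881 without 2 rats (adjusted permutation p = 0.00112 and 0.00476 for r and rho over all 10). Sod1 and Gpx1 had r = 0.921 and rho = 0.879, and 0.921 without 2 rats (adjusted permutation p = 0.00112 and 0.007). For Sod2 and Gsr r was 0.918 and rho 0.903, and r was 0.829 without 2 rats (adjusted permutation p = 0.00112 and 0.0061). After the 2 farthest rats were left out of each pair, r over the 21 pairs ranged from 0.495 to 0.932, and 14 of 21 had an unadjusted permutation p under 0.05. Without control rat 3 alone, 8 of the 28 pairs passed the adjusted threshold in place of 21, while r over the 21 pairs without Cat ranged from 0.622 to 0.954 with a median of 0.715. Deviations from the group means, pooled over the 10 rats, gave 21 pairs again. Correlations within each group alone were not computed.

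The signals of the 7 genes other than Cat also correlated with properties of the whole arrays. Control rat 3 and mulberry rats 1 and 4 had untrimmed mean intensities of 847, 839 and 835, against 792 to 824 for the other 7 arrays, although all were scaled to a trimmed mean of 500. The r of this array mean with a gene was 0.968 for Gpx1 (rho = 0.927, r = 0.958 without 2 rats) and between 0.788 and 0.968 for the 7 genes other than Cat, all 7 passing the permutation test adjusted over 32 relations (adjusted p from 0.00064 to 0.0129). The array mean includes these bright probe sets themselves. For Cat it was 0.542 (rho = 0.442, r = 0.141 without 2 rats, adjusted permutation p = 0.169). Gapdh has control probe sets at either end of its transcript, and their log2 ratio, 3′ over 5′, reads RNA integrity and labelling. It ran against the same 7 genes, with r from -0.922 to -0.818, rho from -0.927 to -0.830 and adjusted permutation p from 0.00064 to 0.00731, and r stayed between -0.888 and -0.760 without 2 rats. For Cat r was -0.359 and rho -0.103 (adjusted permutation p = 0.403). The ratio lay between -0.012 and 0.34 in control and between 0.024 and 0.34 in mulberry rats. The like log2 ratio of actin was larger, 1.51 to 2.10 in control and 1.29 to 1.95 in mulberry rats. Its correlation passed for Sod1, Gpx1 and Cat, the last with r = -0.710 and rho = -0.794 (adjusted permutation p = 0.0389, r = -0.882 without 2 rats). After quantile normalization the array mean still passed for 6 of the 8 genes and the Gapdh ratio for 7, the latter with r = 0.788 for Cat. The part of either measure in the correlations was not tested.

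After quantile normalization, which gives each array the same distribution, fewer pairs passed and catalase changed sign. Of the 21 pairs without Cat, 7 passed, with r from 0.372 to 0.974 and a median of 0.652. Over the 1033 brightest genes the median was 0.0059 and the 95th percentile 0.679. Gpx1 with Prdx2 (r = 0.974, adjusted permutation p = 0.00028), Sod2 with Gsr (r = 0.894, adjusted permutation p = 0.00784) and Gpx4 with Prdx6 (r = 0.884, adjusted permutation p = 0.00784) had the highest values. All 7 pairs with Cat became negative, from -0.877 to -0.558, and 2 of them passed, with Prdx6 (adjusted permutation p = 0.00854) and Gsr (adjusted permutation p = 0.0389). With each array centred on its median instead, 27 of 28 pairs passed, and Cat had r from 0.582 to 0.802 with the other genes. Under that scaling the 1033 brightest genes had a median r of 0.475 and a 95th percentile of 0.886, above each of the values of Cat. Whether Cat varies with or against the other enzymes therefore differed between scalings of the same 10 arrays.

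**Figure D4:**
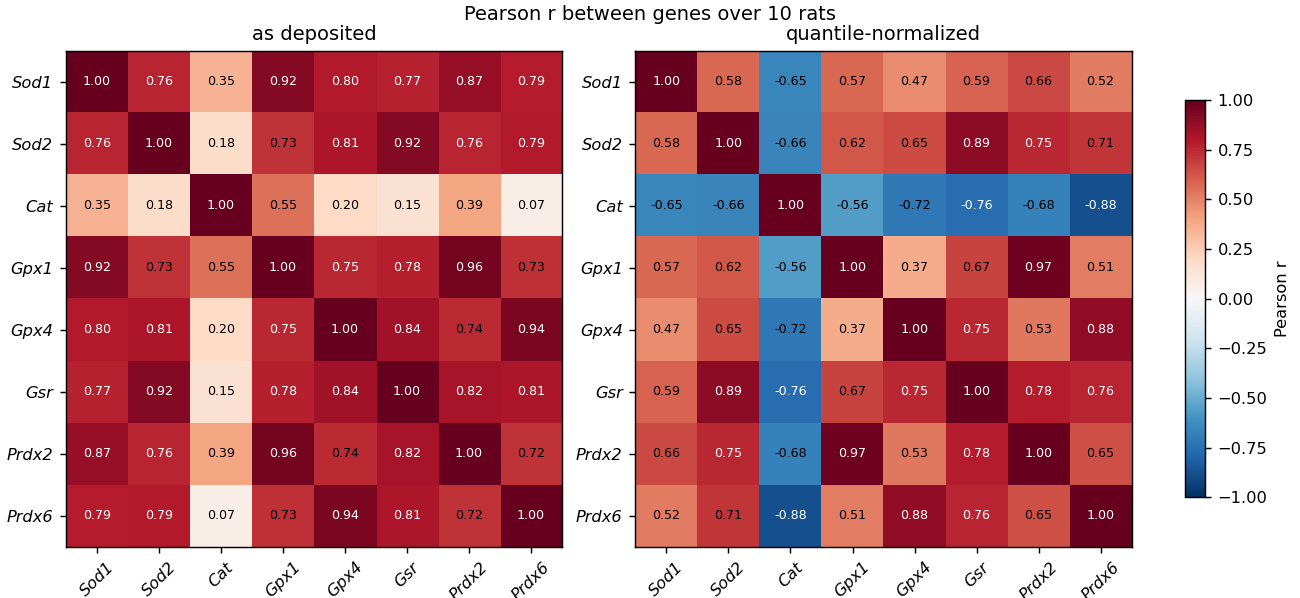
Pearson r between each pair of the 8 genes over 10 rats, from the intensities as deposited (left) and after quantile normalization (right); rows and columns are genes and colour runs from -1 (blue) to 1 (red). The Cat row is weakly positive on the left (0.068 to 0.549) and negative on the right (-0.877 to -0.558), while Gpx1 with Prdx2 has 0.956 and 0.974.

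The genes most like Cat over the 10 rats, by Pearson r among 10327 genes, were Rbpms (r = 0.905, rho = 0.903), Cd164 (r = 0.892, rho = 0.867) and Anks1b (r = 0.891, rho = 0.818). They were picked as the highest of all genes, so these values are a description. Without the 2 rats farthest from the median of Cat, r was 0.797, 0.722 and 0.534. With quantile normalization r was 0.088, 0.687 and 0.236, so of the 3 Cd164 kept the highest value.

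In the wider pathway no gene passed the adjusted threshold either. Of 117 entries in 7 lists around these enzymes, 101 were on the array by a single symbol and 95 were tested. With limma, 0 passed the adjusted threshold, and 41 had a higher and 54 a lower mean in mulberry rats. Under an unadjusted limma p of 0.05 there was 1 gene (1.05%), against 1.79% of all 10328 genes. That gene was Ggct, which breaks down gamma-glutamyl amino acids released from glutathione, whose 5 control rats averaged 2073 ± 343 (SD) and whose 5 mulberry rats averaged 1652 ± 161 (SD). Its log2 difference was -0.31 ± 0.12 (SE), with an unadjusted p of 0.0238 and an adjusted p of 0.9999 in the limma fit.

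Of the other dismutases and peroxidases 8 were tested, 5 higher and 3 lower, with a median difference of +0.05. Gpx3, the secreted peroxidase of plasma, was at +0.24 ± 0.14 (SE) and the extracellular dismutase Sod3 at +0.16 ± 0.17. Thioredoxin and glutaredoxin genes were lower in 12 of 18 cases (median -0.05), with Glrx, a glutaredoxin, at -0.30 ± 0.17 and Txnrd3 at -0.27 ± 0.17. In glutathione synthesis and NADPH supply 9 of 14 genes were lower (median -0.04), among them Pgd of the pentose phosphate pathway at -0.16 ± 0.11. Of the genes around the transcription factor Nrf2, 8 of 11 were higher (median +0.04), with Nfe2l2, which encodes Nrf2, at +0.25 ± 0.19 and its relative Nfe2l1 at +0.20 ± 0.15. Sources of peroxide and superoxide were split, 10 higher and 8 lower (median +0.05), with the peroxisomal oxidases Acox3 at -0.16 ± 0.13 and Acox2 at +0.11 ± 0.10. Of the genes listed for selenoprotein synthesis, 8 of 11 were lower (median -0.04). Among them Sephs1 was at -0.17 ± 0.12 and Secisbp2, which binds selenoprotein transcripts, at -0.18 ± 0.15. Of the peroxisome assembly genes, which serve the organelle that holds catalase, 11 of 15 were lower (median -0.04), with Pex10 at -0.20 ± 0.13 and Pex7 at -0.17 ± 0.11. Each named gene missed the test at an adjusted p of 0.9999 with limma. Over all genes tested 51.3% had a higher mean in mulberry rats. Median centring moved the median over all genes from +0.0035 to -0.024, and signs of these lists under that scaling were not computed.

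The tissue and its other cells were checked by marker lists. All 11 hepatocyte markers on the array were tested, with a summed intensity of 292590.0 to 338835 in control and 297384 to 348568 in mulberry rats, and each had a higher mean in mulberry rats (median +0.04, 0 of 11 passing). The smallest of these differences was +0.0060, less than median centring moved the median over all genes (from +0.0035 to -0.024). Signs of the markers under that scaling were not computed. The mean of the hepatocyte markers per rat lay above the mean of all rats in control rats 3 and 4 (+0.083 and +0.049) and mulberry rats 1 and 4 (+0.16 and +0.14), and below it in the other 6 rats (-0.10 to -0.011). Of these 4 rats, control rats 3 and 4 and mulberry rat 4 were also above the mean for all 7 enzymes other than Cat, and mulberry rat 1 for all but Sod2. The same 4 rats had the 4 highest untrimmed array means (824 to 847) and the 4 lowest Gapdh log2 ratios, 3′ over 5′ (-0.012 to 0.12). The part of these array measures in the marker means was not tested. The rats had been bled at death. Red blood cells, which are rich in Cat, Prdx2 and Sod1 protein, were represented by 5 tested markers of 9 on the array. Their summed intensity was 19791 to 32305 in control and 25224 to 30644 in mulberry rats, and Epb42, Ahsp, Rhd and Rhag were under the filter. The mean of these markers per rat had r between -0.666 and 0.245 with the 8 genes, and 0 of the 8 relations passed the permutation test adjusted over 32 relations. The lowest was with Cat (r = -0.666, rho = -0.479, adjusted permutation p = 0.0577, r = -0.242 without 2 rats). Of the 5 markers, Slc4a1 was dim, from 24.3 in mulberry rat 1 to 118 in mulberry rat 2, around the filter level of 61.1. Mulberry rat 1 had both the lowest mean of these markers (-0.26) and the highest Cat intensity. The part of Slc4a1 in this correlation was not tested. Kupffer cell and macrophage markers were lowest in mulberry rat 3, at -0.70 relative to the mean of all rats, and highest in mulberry rat 4 and control rat 3, both at +0.41. In control rats 1, 2, 4 and 5 they were at -0.18, -0.17, +0.057 and -0.083. All 7 enzymes other than Cat lay on the same side of their mean there. They were at -0.11 in mulberry rat 1 and at +0.076 in mulberry rat 2, where most of the enzymes lay the other way. In mulberry rat 5 they were at +0.28, with enzymes on either side of their mean. Correlations of these markers with the enzymes were not computed. Of 10 such markers tested, 7 had a higher mean in mulberry rats, with summed intensities of 20394 to 28152 in control and 12818 to 30439.7 in mulberry rats. Their log2 differences ranged from -0.96 to +0.39, and the part of any single marker in these values was not tested. In RNA from whole liver, fewer cells of a type and less RNA per cell cannot be told apart, and the part of these cells in the values was not tested.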

How the data were processed

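The values the authors deposited are linear signal intensities of 31099 probe sets in each of 10 livers. Per the submitters' processing notes MAS5 and the affy package were used, with no version or role given. Per the labels' protocols, 2 µg of each liver's total RNA was labelled as biotin cRNA. The trimmed mean (2% off each end) was 500 and the lowest value 1 on every array, so values were used as scaled. Precision is limited by how many arrays there are, and brightness ranks of different probe sets are not ranks of RNA amount.

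From the intensities log2(intensity + 16) was computed, which understates differences of dim probe sets. The 57 control probe sets and those whose mean log2 value did not exceed the 40th percentile, 6.27 (an intensity of 61.1), were left out. Groups came from the sample titles. Mulberry and control rats were compared across all genes in a two-sided limma 3.58.1 fit in R 4.3.3 (lmFit, then eBayes with trend), and p-values were adjusted by Benjamini and Hochberg across 18625 probe sets at a threshold of 0.05. A gene with several probe sets was represented by the brightest. Correlations across rats used two-sided permutation tests with 100000 resamples, in Python 3.11.15 with numpy 2.4.6, pandas 2.3.3 and scipy 1.17.1, and plots were drawn with matplotlib 3.10.9. The scripts' tests were tried on simulated data. Gene names came from the platform annotation, in which 20826 probe sets carried 1 symbol, 436 several and 9780 none used here, and the 8 genes matched RefSeq GRCr8 by Entrez identifier.

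The members and lists were chosen with earlier results of these data known. Named were the 8 genes, the 2 genes with the smallest unadjusted p in each of the 7 pathway lists, and the 3 genes most correlated with Cat. Marker lists not described elsewhere in the text (lymphocyte, endothelial, stellate, bile duct, adipocyte and pancreatic acinar) had 0 genes past the adjusted threshold. Alternatives were other pseudocounts, filters and scalings, leaving out each rat, a block for the replicate number, weights per array, a fit without the trend, and 1 probe set or the median per gene.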

Additional observations from a re-analysis of the deposited data

How the results depend on the processing

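Under all 21 alternatives of the limma fit, 0 probe sets and 0 of the 8 genes passed the adjusted threshold (smallest adjusted p of the 8 genes 0.9987). Of 168 gene and setting combinations, 150 kept their sign and 18 turned it, and Sod1, Sod2 and Gsr kept theirs throughout. Quantile normalization turned Cat (-0.018), and median centring turned Cat (-0.024), Prdx2 (-0.013) and Prdx6 (-0.0028). Leaving out 1 rat gave differences from -0.030 to 0.032 for Cat, -0.015 to 0.090 for Gpx1, -0.00033 to 0.15 for Gpx4, -0.044 to 0.078 for Prdx2 and -0.059 to 0.12 for Prdx6. Such differences are smaller than the SD of the 8 genes' mean between rats, which was 0.17. The ranges with 1 rat left out for Sod1, Sod2, Gsr and the median of the 8 genes stand beside their values in the report. The pairs of genes with an adjusted permutation p under 0.05 were 21 of 28, but 9 with quantile normalization (median r 0.583 in place of 0.768), and between 8 (without control rat 3) and 21 when 1 rat was left out. The cause was not tested.

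With the replicate number as a block the differences of the 8 genes were unchanged (median 0.020) and 0 passed. Under the block, 286 probe sets had an unadjusted limma p under 0.05 in place of 325. Same-numbered rats had deviations correlated between -0.326 and 0.096, and 1 of 5 control rats correlated best with its own number. These 5 values showed no pairing by number but are too few to exclude it.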

Other observations

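Of the cell type markers, 4 are named here that were chosen after their values were seen, for an unadjusted limma p under 0.05, and none passed the adjusted threshold. They were both of the 2 neutrophil markers tested, and 1 higher and 1 lower of the 10 Kupffer cell and macrophage markers tested. The other marker lists had 0 under that level, and over all 10328 genes the share was 1.79%. The neutrophil marker S100a9, a calcium-binding protein, had an intensity of 232 ± 31.0 over the 5 controls and 132 ± 41.3 over the 5 mulberry rats (SD), with an unadjusted limma p of 0.00136 and an adjusted p of 0.9999. Its partner S100a8 was at 86.3 ± 7.80 and 54.4 ± 24.0 (SD, n = 5 each), the mulberry mean being below the filter level of 61.1. Camp, Cxcr2 and Csf3r were under the filter. Of the Kupffer cell markers, Cd14, the lipopolysaccharide co-receptor, had a lower mean in mulberry rats (-0.38 ± 0.15, SE) and the lysosomal protein Cd68 a higher one (+0.39 ± 0.18), both with an adjusted limma p of 0.9999. The 10 markers ranged from -0.96 to +0.39, so a marker other than Cd14 had the lowest difference. In none of the 18 sets of 5 values of the 9 enzyme probe sets did 1 rat stand apart by Dixon's criterion for 5 values (0.71).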
